A study of Mus musculus with 12 samples.

Results

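A set of 10 genes of bone morphogenetic protein (BMP) signalling were followed in mouse epiblast stem cells (EpiSCs), pluripotent cells that resemble the epiblast after implantation. They were the ligand genes Bmp4 and Bmp7, the co-receptor gene Rgma, the pseudoreceptor gene Bambi, the inhibitory Smad genes Smad6 and Smad7, and the target genes Id1, Id2, Id3 and Msx2. The 10 genes were chosen by name, with earlier results of these data known, and are 10 of the 19938 genes measured. Each was read by 1 probe annotated to that gene alone. The cells had the genetic background 129 and came in 4 groups of 3 arrays: untreated, 2 h of CHIR99021 (3 µM), XAV939 (2 µM), and both compounds together. CHIR99021 inhibits the kinase GSK3 and so stabilises beta-catenin; XAV939 inhibits tankyrase, stabilises Axin and so lowers beta-catenin. All groups, the untreated one included, had been kept without serum for 12 h beforehand, while the recorded growth medium holds 10% serum. Exposure to XAV939 is 2 h in the sample labels and 4 h in the series' design text. The labels name no separate cultures behind the 3 arrays of a group, so the spread behind each p-value is that between these arrays and may be technical.

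BMP ligands bind type I and type II receptor kinases, which phosphorylate the receptor-regulated Smads 1, 5 and 9; these join Smad4 and act on target genes in the nucleus. The Id genes are direct targets and encode helix-loop-helix proteins that bind E proteins and keep them from DNA. Smad6 and Smad7 are targets that feed back to inhibit the pathway, Bambi encodes a receptor-like protein without a kinase that dampens signalling, and Rgma encodes a membrane-anchored repulsive guidance molecule that binds BMPs and neogenin. In the embryo at this stage, BMP4 from the extra-embryonic ectoderm acts on the epiblast, where it bears on mesoderm and germ cell formation.

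The start regions of Id3 and Smad6, the 2 target genes among the 10 that passed the test on average with CHIR99021, in opposite directions, are printed here with that of Id2, a target gene that passed no test. Promoter sequences of 5 of the 10 genes (Bmp4, Id2, Id3, Msx2 and Smad6) matched in RefSeq on GRCm38.p6. Each run is 5′ to 3′ on the gene's strand, from 250 bases before to 10 bases after the annotated start. Capitals mark matches on either strand to GTCT, the Smad box, to its palindrome GTCTAGAC, which holds 2 Smad boxes, and to GGCGCC, a GC-rich Smad element.
Id3, chr4:136143572-136143831 (plus strand): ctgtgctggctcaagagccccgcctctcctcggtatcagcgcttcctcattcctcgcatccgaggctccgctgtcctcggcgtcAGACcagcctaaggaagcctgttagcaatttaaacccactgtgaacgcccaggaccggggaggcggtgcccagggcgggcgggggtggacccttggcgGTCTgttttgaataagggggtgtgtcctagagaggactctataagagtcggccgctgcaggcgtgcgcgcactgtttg
Smad6, chr9:64022050-64022309 (minus strand): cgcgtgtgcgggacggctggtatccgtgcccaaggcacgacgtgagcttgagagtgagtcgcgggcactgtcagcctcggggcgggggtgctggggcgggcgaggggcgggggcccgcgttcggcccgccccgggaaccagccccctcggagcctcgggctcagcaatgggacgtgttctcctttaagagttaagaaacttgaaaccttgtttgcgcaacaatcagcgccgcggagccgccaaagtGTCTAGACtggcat
Id2, chr12:25096083-25096342 (minus strand): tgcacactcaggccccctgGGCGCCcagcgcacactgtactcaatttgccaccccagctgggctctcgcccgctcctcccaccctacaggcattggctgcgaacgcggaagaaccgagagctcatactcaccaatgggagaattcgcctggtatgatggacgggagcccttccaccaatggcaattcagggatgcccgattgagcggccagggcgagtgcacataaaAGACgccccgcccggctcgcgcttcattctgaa

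Smad6 had the palindrome GTCTAGAC, beginning 4 bases before the annotated start, as did 0.177% of the 32851 promoter windows of that length. Id3 had 2 Smad boxes, 166 and 68 bases before the start, and Id2 had 1, 23 bases before it; GTCT alone occurred in 84.0% of all windows. Id2 also held GGCGCC, 231 bases before the start, found in 9.96% of windows. The TCF/LEF core CTTTGA, present in 14.3% of windows, had no match in any of the 5 windows. These are matches of letters and describe the sequences only.

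The deposited expression values are read as log2, since they range from 2.52 to 14.3 and no base is stated, and a change is a difference of group means on that scale. A rough background measure of 4.94 was set by 1194 olfactory or vomeronasal receptor genes, of which 95% had a lower mean. Array medians lay between 5.22 and 5.27, and their SD within an array between 2.14 and 2.21. All 10 epiblast markers, Pou5f1 and Sox2 among them, lay above the background measure (7.61 to 11.6), as did 3 of 8 naive, 3 of 8 fibroblast, 4 of 4 neural, 0 of 3 mesoderm, 2 of 5 endoderm and 4 of 6 trophoblast or surface ectoderm markers. The mean level of the 8 fibroblast markers was 4.99 to 5.06 on the untreated arrays, 4.91 to 4.97 with CHIR99021, 4.96 to 4.99 with XAV939 and 4.90 to 4.98 with both, with Col3a1, Postn, Lum, Dcn and Pdgfrb below the background measure; their part in the results was not tested. The mean of the 6 trophoblast or surface ectoderm markers was 5.81 to 5.89 untreated and 5.92 to 5.99 with CHIR99021. It was 5.78 to 5.90 with XAV939 and 5.88 to 5.95 with both, which overlap. With CHIR99021 alone the 6 markers changed by -0.13 to 0.46, with a median of 0.07. The largest of these changes was that of Cdx2, which lay below the background measure. The part of these markers was likewise not tested. Axin2, the standard readout of beta-catenin activity, measured 5.77 to 6.04 on untreated arrays, 6.96 to 7.03 after CHIR99021, 5.55 to 5.94 after XAV939 and 6.35 to 6.48 after both.

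Of the 10 genes, Rgma and Id3 rose and Smad6 fell with CHIR99021; the other 7 did not pass the test. The change with CHIR99021 was measured without XAV939 (CHIR99021 against untreated), with it (both compounds against XAV939 alone), and as the average of those, which sets 6 arrays against 6. Adjusted over all genes (limma, Benjamini-Hochberg, adjusted p under 0.05), 1 of the 10 genes was called without XAV939, where 0.421% of all genes were called, none with XAV939, where 0.236% were, and 3 on average, where 1.59% were. The average calls were 2 higher (Rgma and Id3; 0.777% of all genes) and 1 lower (Smad6; 0.818%). At an unadjusted p under 0.05, limma found 4, 3 and 5 of the 10, against 10.3%, 9.69% and 14% of all genes. The 10 genes were chosen with earlier results of these data known, so these shares cannot be read as an excess in a list fixed beforehand. The median change of the 10 genes on average was -0.08, against -0.0050 over all genes.

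**Figure D1:**
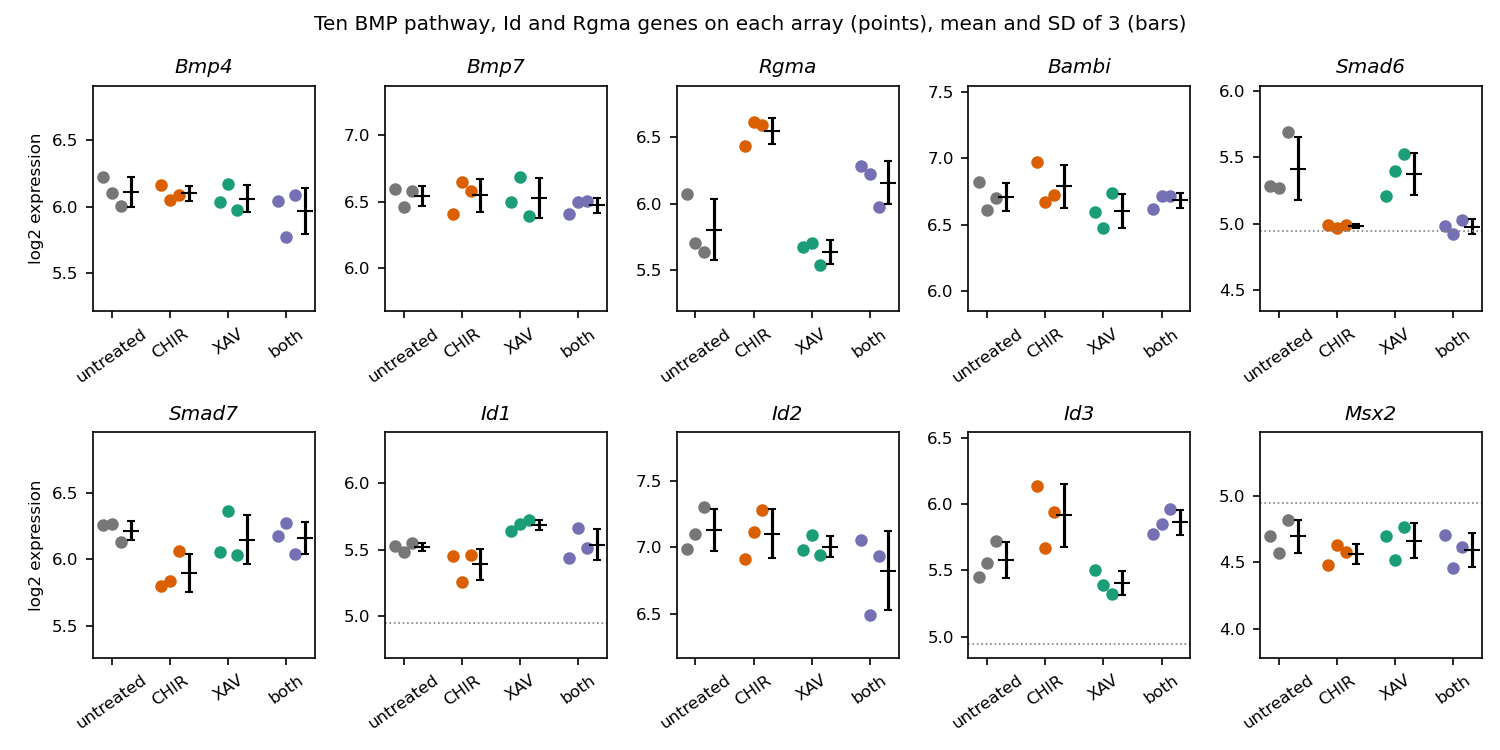
Log2 expression of the 10 genes on each array (points; 3 per group) with the group mean and SD (bars); every panel spans the same height and the dotted line is the background measure of 4.94. Rgma stands highest with CHIR99021 (6.44 to 6.61), Smad6 lies between 4.92 and 5.03 on all 6 arrays with CHIR99021, and Msx2 stays below the dotted line throughout.

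Rgma had the largest change of the 10 genes. Its values were 6.07, 5.70 and 5.64 on the untreated arrays, 6.44, 6.61 and 6.59 with CHIR99021, 5.68, 5.70 and 5.53 with XAV939, and 6.28, 6.22 and 5.97 with both compounds. All 3 arrays with CHIR99021 alone lay above every other array (no overlap with untreated in 16.3% of all genes), and the arrays with both compounds lay above those with XAV939 alone (14.3%); untreated replicate 1 stood apart from its group and reached into the range of both compounds. In bulk RNA such as this, a change in the share of cells that express a gene cannot be told apart from a change in RNA per cell. CHIR99021 alone raised Rgma 1.67-fold, a change of 0.74 (SE 0.11; limma adjusted p = 0.00411), which placed it 22nd of all genes by p. On average over the presence of XAV939 the change was 0.63 (SE 0.08; limma adjusted p = 0.000362), 1.55-fold.

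With XAV939 present, the change of Rgma with CHIR99021 was 0.52 (SE 0.11; 1.44-fold) and did not pass (limma adjusted p = 0.0681). This comparison shares no array with CHIR99021 against untreated. It passed in 3 of 25 alternative fits. These were without untreated replicate 1 (limma adjusted p = 0.0224), and with dim genes removed at the median expression or at the background measure (limma adjusted p = 0.0464 and 0.0499). Untreated arrays enter this comparison only through the shared estimate of spread, and the change stayed 0.52 without that replicate. With single arrays left out, the limma adjusted p reached 0.277. Both compounds against untreated gave 0.35 (SE 0.11; limma adjusted p = 0.104), and 0.49 without untreated replicate 1 (limma adjusted p = 0.0453). That was the 1 of 25 alternative fits that passed, and the limma adjusted p reached 0.343 with another array left out. The difference between the changes with and without XAV939 was -0.22, with a 95% confidence interval of -0.55 to 0.11.

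No difference of Rgma with XAV939 passed the test. XAV939 alone differed from untreated by -0.17 (SE 0.11; limma adjusted p = 0.575), with overlapping groups, and by -0.03 without untreated replicate 1. Both compounds differed from CHIR99021 alone by -0.39 (SE 0.11; limma adjusted p = 0.263), and there the groups did not overlap, as in 16.1% of all genes. The average was -0.28 (SE 0.08; limma adjusted p = 0.104). The order of the group means was therefore CHIR99021 (6.55 ± 0.10, SD, n = 3), both compounds (6.16 ± 0.16), untreated (5.80 ± 0.23) and XAV939 (5.64 ± 0.09), of which the last pair differed by less than the spread of the untreated arrays.

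Smad6, the inhibitory Smad that acts mainly on BMP signals, fell with CHIR99021. It measured 5.29, 5.27 and 5.69 on the untreated arrays and 5.21, 5.40 and 5.52 with XAV939, against 4.99, 4.97 and 4.99 with CHIR99021 and 4.99, 4.92 and 5.03 with both compounds. The 6 arrays with CHIR99021 thus lay below all 6 without it, as for 1.63% of all genes. They lay close to the background measure of 4.94, where a signal is hard to tell from background. Whether this limits the size of the fall was not tested. The average change was -0.42 (SE 0.07; limma adjusted p = 0.0078), 1.33-fold lower. It was nearly the same without XAV939 (-0.43, SE 0.10; limma adjusted p = 0.0955) and with it (-0.40, SE 0.10; limma adjusted p = 0.176), although neither passed alone.

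The call of Smad6 ended when the SD of each array entered as a covariate (limma adjusted p = 0.0508). Both compounds against untreated gave -0.44 (SE 0.10), which did not pass (limma adjusted p = 0.0538). With single arrays left out, this change lay between -0.51 and -0.30. The comparison passed with genes below the background measure removed (limma adjusted p = 0.0368) and in 1 other alternative fit. XAV939 alone differed from untreated by -0.04, with a confidence interval of -0.26 to 0.18. Beside CHIR99021, Smad6 was close to the background measure with and without XAV939, so no difference is read from that comparison.

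Smad7, an inhibitory Smad that acts on TGF-beta and activin receptors as well as BMP receptors, did not pass in any comparison. Its values were 6.26, 6.26 and 6.13 untreated, 5.80, 5.83 and 6.07 with CHIR99021, 6.06, 6.36 and 6.03 with XAV939, and 6.18, 6.27 and 6.04 with both. The CHIR99021 arrays lay below the untreated ones, as in 16.3% of all genes for a gap in either direction, while the arrays with both compounds overlapped those with XAV939. The change with CHIR99021 was -0.32 (SE 0.10; limma adjusted p = 0.237) alone and 0.01 (SE 0.10; limma adjusted p = 0.984) with XAV939. The difference between these, 0.33, had a 95% confidence interval of 0.03 to 0.63 and an unadjusted p of 0.0334 by limma, and an adjusted p of 0.965. Both compounds against CHIR99021 alone gave 0.26 (SE 0.10; limma adjusted p = 0.366). Bambi, which is expressed at 6.69 on average, had an average change with CHIR99021 of 0.08, with a confidence interval of -0.06 to 0.22.

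**Figure D2:**
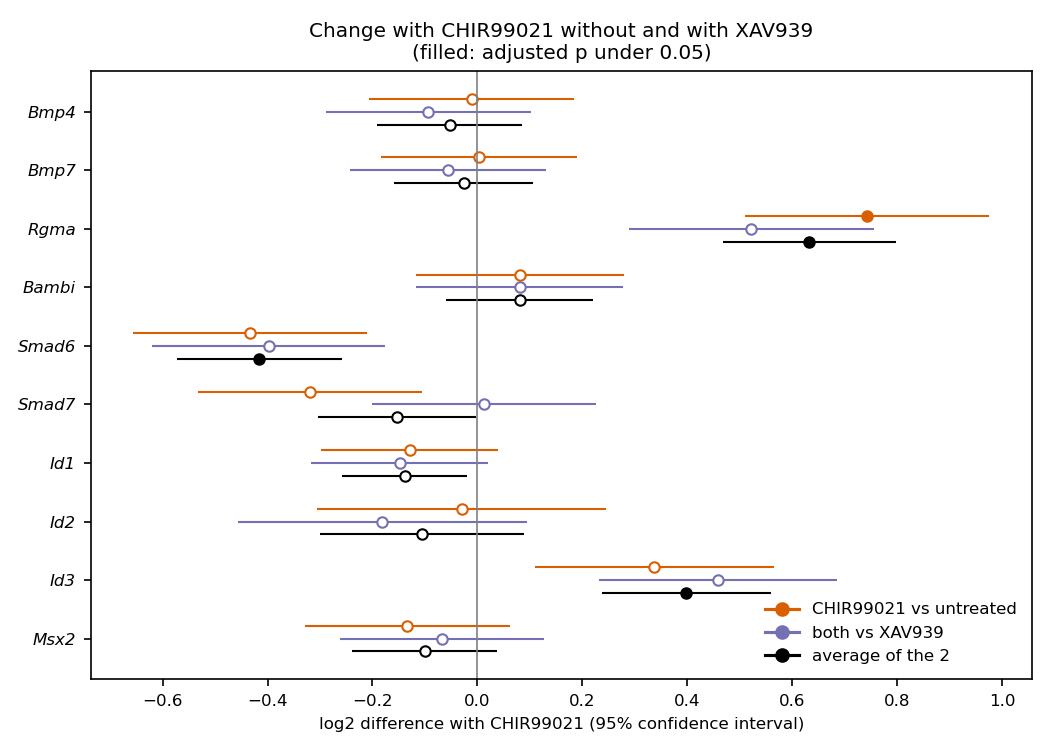
Log2 difference with CHIR99021 for each of the 10 genes, measured against untreated cells (orange), against XAV939 alone in cells given both compounds (purple), and as the average (black); bars are 95% confidence intervals from the limma fit and filled points passed at an adjusted p under 0.05. Rgma and Id3 lie to the right of zero and Smad6 to the left in each of the 3 estimates, whereas the Smad7 estimates are -0.32 and 0.01.

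Of the 3 Id genes, Id3 rose with CHIR99021, while Id1 and Id2 passed in no comparison; the difference between the genes was not tested. Id3 measured 5.45, 5.56 and 5.72 untreated, 6.14, 5.67 and 5.94 with CHIR99021, 5.50, 5.39 and 5.32 with XAV939, and 5.77, 5.85 and 5.96 with both. Arrays with both compounds lay above all untreated arrays (no overlap in 25% of all genes) and all XAV939 arrays (14.3%), but CHIR99021 replicate 2 fell within the untreated range. Id3 rose by 0.40 on average (SE 0.08; limma adjusted p = 0.0124), 1.32-fold. Neither part of that average passed alone, with 0.34 (SE 0.11; limma adjusted p = 0.241) without XAV939 and 0.46 (SE 0.11; limma adjusted p = 0.114) with it. Both compounds against untreated gave 0.28 (SE 0.11; limma adjusted p = 0.169).

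Id1 measured 5.52, 5.49 and 5.55 untreated, 5.45, 5.26 and 5.46 with CHIR99021, 5.64, 5.69 and 5.72 with XAV939, and 5.44, 5.67 and 5.52 with both. The XAV939 arrays were above every untreated and CHIR99021 array, and the CHIR99021 arrays below every untreated one, by small margins. Untreated arrays did not overlap those with XAV939 in 17.6% of all genes, nor those with CHIR99021 in 16.3%. The average change was -0.14 with CHIR99021 (SE 0.06; limma adjusted p = 0.273) and 0.16 with XAV939 (SE 0.06; limma adjusted p = 0.177), so neither passed. Without XAV939 and with it, CHIR99021 gave -0.13 (SE 0.08; limma adjusted p = 0.615) and -0.15 (SE 0.08; limma adjusted p = 0.585).

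Id2 measured 6.99, 7.10 and 7.31 untreated, 6.91, 7.12 and 7.28 with CHIR99021, 6.98, 7.10 and 6.94 with XAV939, and 7.06, 6.49 and 6.93 with both. All groups overlapped, and replicate 2 of both compounds was the lowest array. Its average changes were -0.11 with CHIR99021 (SE 0.09; limma adjusted p = 0.656) and -0.20 with XAV939 (SE 0.09; limma adjusted p = 0.282). Both compounds against untreated gave -0.31 (SE 0.13; limma adjusted p = 0.217) and against CHIR99021 -0.28 (SE 0.13; limma adjusted p = 0.454). Without replicate 2 of both compounds these were -0.14 and -0.11.

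The ligand genes differed little between groups. Bmp4, the BMP of the extra-embryonic ectoderm and later of ventral mesoderm, averaged 6.11 ± 0.11 (SD, n = 3) in untreated cells, 6.10 ± 0.06 after CHIR99021, 6.06 ± 0.10 after XAV939 and 5.97 ± 0.17 after both, and all 12 arrays lay between 5.77 and 6.23. Bmp7 had means of 6.54 ± 0.08, 6.55 ± 0.12, 6.53 ± 0.15 and 6.47 ± 0.05 in the same order, with all arrays between 6.40 and 6.69. The average change with CHIR99021 was -0.05 for Bmp4 (confidence interval -0.19 to 0.09) and -0.03 for Bmp7 (-0.16 to 0.11). Msx2, a homeobox gene induced by BMPs in many tissues, had group means from 4.56 to 4.70, all below the background measure. Its average change of -0.10 (confidence interval -0.24 to 0.04) thus concerns a signal not told from background.

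With XAV939 none of the 10 genes passed in any comparison. For XAV939 alone limma called 0 of 10, where 0% of all genes were called and 0 of the 10 had an unadjusted p under 0.05 (11.2% of all genes). For both compounds against CHIR99021 it called 0 of 10 (0.0251% of all genes) with 3 at an unadjusted p under 0.05 (11% of all genes), and for the average effect of XAV939 0 of 10 (0.331% of all genes, 0.211% higher) with 3 (16.9%). Over all 6 arrays with XAV939 against the 6 without, none of the 10 lacked overlap (1.52% of all genes). Both compounds against untreated gave 0 of 10 calls (1.13% of all genes, 0.818% higher) with 4 at an unadjusted p under 0.05 (18.7%). The direction of the calls over all genes moved with the scaling. Both compounds against untreated had 163 genes higher and 62 lower as deposited, 59 and 44 after quantile normalization, 55 and 49 after cyclic loess, and 324 and 58 after median centring. The average effect of XAV939 had 42 higher and 24 lower as deposited, 4 and 10 after quantile normalization, 3 and 10 after cyclic loess, and 64 and 23 after median centring. For the average effect of CHIR99021, 155 genes were higher and 163 lower as deposited. These were 134 and 205 after quantile normalization, 141 and 200 after cyclic loess, and 169 and 134 after median centring. Adjusted over all genes, limma called no interaction for any gene (0%), and 1 of the 10, Smad7, had an unadjusted p under 0.05 (4.94% of all genes). Changes with XAV939 alone ranged from -0.17 to 0.17 over the 10 genes.

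The rest of the pathway was read from lists of ligands, receptors, co-receptors, Smads and their regulators, secreted antagonists and target genes. Besides the 10 genes these held 69, of which 67 were analysed here and 42 lay above the background measure. On average over the presence of XAV939, CHIR99021 raised 3 of the 67 (Fst, Zeb2 and Cdx2; 4.48%) and lowered none. Of all genes, 0.777% were called higher and 0.818% lower. Cdx2 lay below the background measure, and the lists were chosen with earlier results of these data known. The median change of the 67 was -0.01. Fst, Zeb2 and Cdx2 were also called without XAV939 (0.256% of all genes called higher), and Fst and Zeb2 with it (0.1%). Fst was the single gene of the 67 called lower for both compounds against CHIR99021 (0.0251% of all genes called lower). The same held for the average effect of XAV939 (0.12%).

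Fst encodes follistatin, a secreted protein that binds activins and, less tightly, several BMPs. It measured 7.88, 8.08 and 7.97 untreated, 9.83, 9.79 and 9.75 with CHIR99021, 7.55, 7.49 and 7.30 with XAV939, and 9.24, 8.91 and 9.24 with both. None of the groups overlapped, and the pairs of groups compared here lacked overlap in 14.3% to 25% of all genes. With CHIR99021, Fst rose by 1.74 on average (SE 0.07; limma adjusted p = 2.6e-10). Zeb2 encodes a repressor that binds receptor-activated Smads. It lay between 6.93 and 7.06 on the 6 arrays without CHIR99021 and between 7.54 and 7.84 on the 6 with it. Such a lack of overlap held for 1.63% of all genes. The average rise of Zeb2 was 0.69 (SE 0.05; limma adjusted p = 1.01e-06). Cdx2, a homeobox gene of trophectoderm and posterior mesoderm, rose by 0.35 on average (SE 0.07; limma adjusted p = 0.0127), with a mean level of 4.51 that lay below the background measure.

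Ligands and receptors gave no call in any comparison. The ligand genes with the smallest p were Bmp5 (both compounds against untreated -0.31; limma adjusted p = 0.0883), at a mean of 4.68 below background, and Gdf3 (average CHIR99021 change -0.20; limma adjusted p = 0.128). Among the 7 receptor genes they were Bmpr2, a type II BMP receptor, and Acvrl1. These differed from untreated with both compounds by 0.31 and -0.23 (limma adjusted p = 0.0755 and 0.0951). Acvrl1 had a mean of 4.79, below background. Among the co-receptors, Rgmb, the close relative of Rgma, had a change of 0.29 with CHIR99021 alone (SE 0.09; limma adjusted p = 0.219) and 0.08 with XAV939 present (SE 0.09; limma adjusted p = 0.822). Neo1, which encodes neogenin, the receptor of RGM proteins, differed by 0.22 between both compounds and untreated (limma adjusted p = 0.127). The receptor-activated Smad genes Smad1 and Smad5 and the shared Smad4 had average changes of 0.05, 0.01 and -0.03 with CHIR99021. Of 19 measured target genes, 2 were called higher (Id3 and Cdx2; 0.777% of all genes) and 1 lower (Smad6; 0.818%) on average with CHIR99021. Their median change was -0.10.

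**Figure D3:**
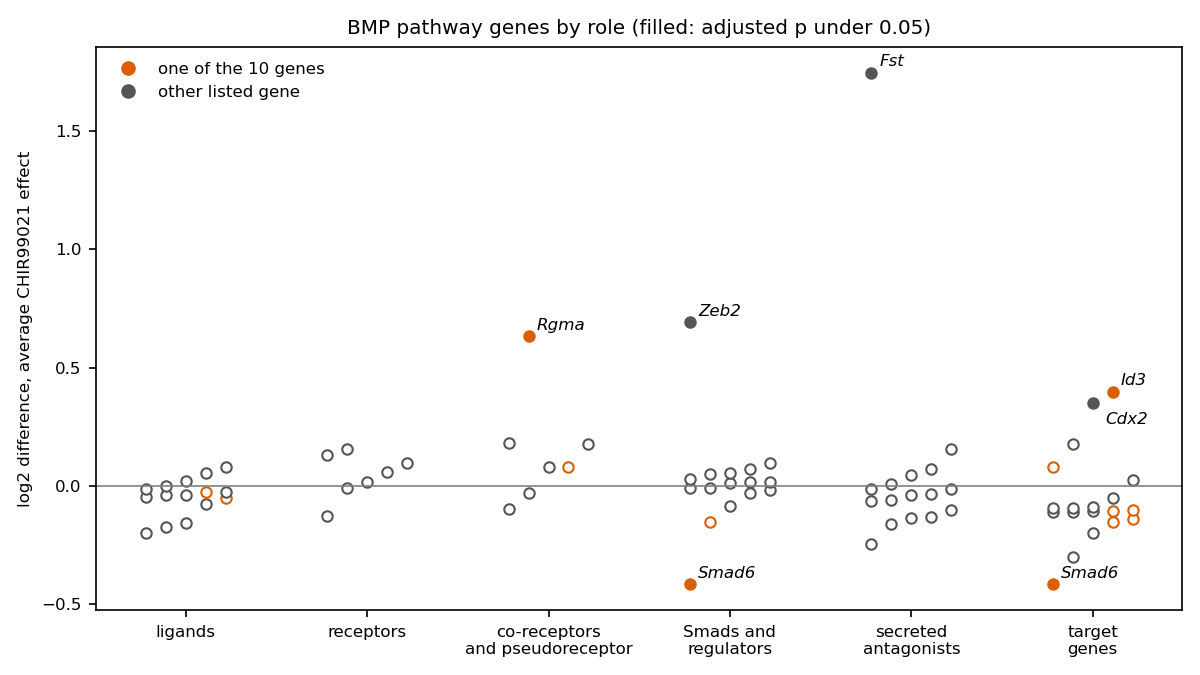
Average log2 difference with CHIR99021 (6 arrays with it against 6 without) for every measured gene of the BMP lists, by role; orange marks the 10 genes, grey the other listed genes, filled points an adjusted p under 0.05, and a gene on 2 lists is drawn under both. Named points passed the test: Fst, Zeb2, Rgma, Id3 and Cdx2 above zero and Smad6 below, with the other listed genes between -0.30 and 0.18.

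For Rgma, Id3 and Id1, the genes with the most similar pattern were sought by Pearson correlation over the 12 arrays, among 11593 genes above the background measure. The arrays share the 4 groups, so r follows the treatments, and also deviations of single arrays that genes share. Nodal, the TGF-beta family ligand of the epiblast, was most like Rgma (r = 0.945), followed by Tnfrsf19 (0.932), a receptor gene known as a Wnt target, the ephrin receptor gene Epha7 (0.930), Plk2 (0.918) and Eif4a2 (0.917). Nodal itself had 6.92, 6.78 and 6.75 untreated, 8.49, 8.57 and 8.67 with CHIR99021, 6.36, 6.35 and 6.33 with XAV939, and 8.02, 7.63 and 7.86 with both. Unlike Rgma, all 3 untreated arrays of Nodal lay above those with XAV939, as in 17.6% of all genes for a gap in either direction. Id3 was most like Man1a (r = 0.904), Fst (0.857), Mir302c (0.856), Dsg2 (0.854) and Efnb2 (0.849), and Id1 like Rxrb (0.942), Cnnm2 (0.932), Mex3a (0.917), Nxpe3 (0.907) and Icam1 (0.902). CHIR99021 replicate 2 was the lowest array of its group for Id1 and all its matches. The same held for Id3 and its matches other than Fst.

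**Figure D4:**
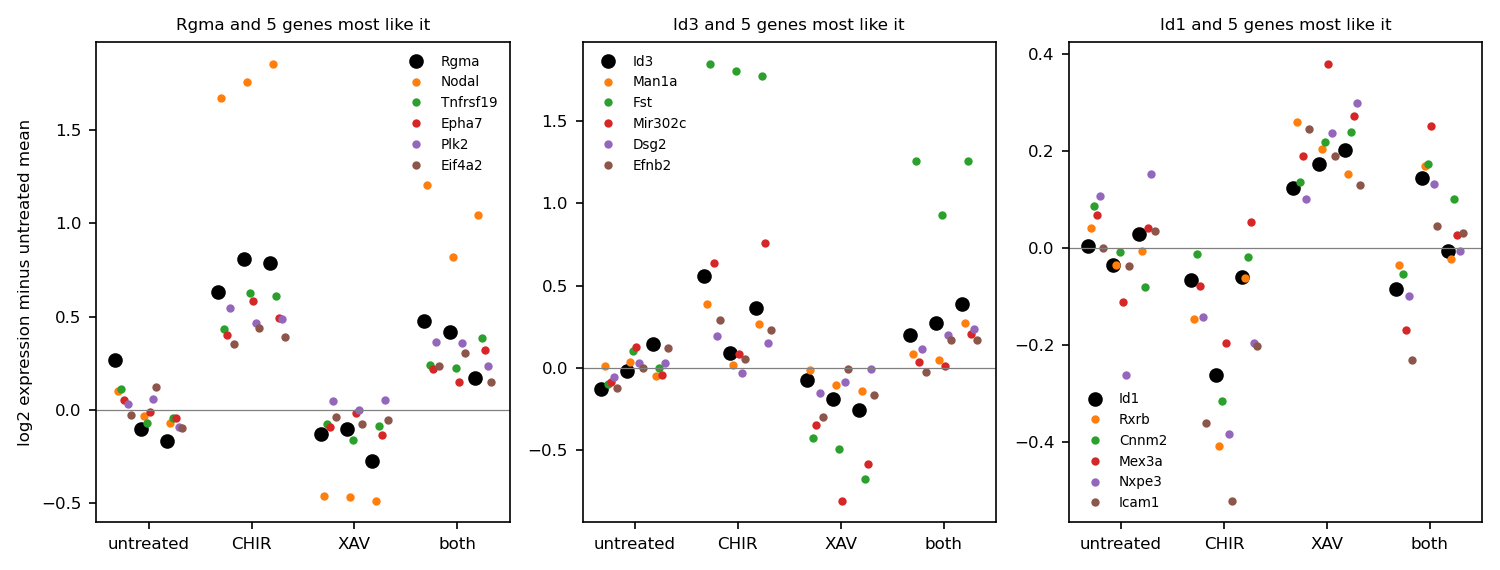
Log2 expression minus the untreated mean on each of the 12 arrays for Rgma, Id3 and Id1 (large black points) and the 5 genes most like each (small coloured points), grouped by treatment; arrays of a group are drawn side by side. Nodal and Fst change by more than Rgma and Id3 in the same direction, and the genes like Id1 are higher with XAV939 than with CHIR99021.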

How the data were processed

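The authors deposited 1 table of log2 expression values per probe for 12 Affymetrix 1-colour arrays; the log2 scale was inferred from the values. The submitters' processing notes name Partek, without its version; background correction, normalization and summary are not given in the sources used here. Of 35399 probes, 21789 had 1 gene symbol, 1621 had several and 11989 were not listed. Symbols were updated through RefSeq gene identifiers (GRCm38.p6 table, names only; 91 unmatched), and the probe with the highest mean stood for a gene, leaving 19938 genes.

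Group means of all 12 arrays were fitted with limma 3.58.1 in R 4.3.3 (lmFit, eBayes; two-sided), with 8 residual and 8.03 prior degrees of freedom, no further normalization and no filter. There were 8 contrasts, adjusted by Benjamini-Hochberg over all genes. The fit was tested on simulated data. Arrays carry no read depth; 3 per group limit the precision. The genes, lists and tests were chosen with earlier results of these data known, and the promoter motifs with the sequences in view. Named besides the 10 genes are called list members, or else the 2 of a list with the smallest p, the 5 genes most like Id1, Id3 and Rgma, and Axin2 and Nodal as treatment readouts. Smad1, Smad4, Smad5, the E protein genes, the cell type markers and Gata3 stand outside that rule; they were chosen for their role with results in view, and Gata3 for its values. Alternatives were other normalizations, filters, probe rules and variance settings, weighted arrays, the replicate number as a block, a minimum fold, a covariate and left-out arrays. Figures were drawn with matplotlib 3.10.9.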

Additional observations from a re-analysis of the deposited data

How the results depend on the processing

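Rgma kept its call for CHIR99021 against untreated in 24 of 25 alternative fits (change 0.66 to 0.88), and with each of the 12 arrays left out in turn (limma adjusted p = 0.000959 to 0.0342). On average over XAV939, Rgma and Id3 kept theirs in 23 of 24 and Smad6 in 21 of 23, each with any 1 array left out (limma adjusted p up to 0.00196, 0.0369 and 0.0267). A test against a minimum fold of 1.5 called 0 of the 10 genes for CHIR99021 against untreated and 0 on average. That test called 0.01% of all genes in each of these comparisons. For both compounds against untreated, 1 gene was called with genes below the background measure removed (3.85% of the 11594 genes kept). The replicate block called 1 as well (limma adjusted p = 0.0446, 0.843% of all genes), and it was Smad6 each time. With single arrays left out, 0 to 1 were called (0.0502% to 1.42% of all genes). For both compounds against XAV939, the filter at the median expression called 1 (0.642% of the 9969 genes kept). The filter at the background measure called 1 (0.552% of 11594). With single arrays left out, 0 to 1 were called (0.105% to 0.251% of all genes). It was Rgma each time. Alternatives for single genes were computed for only some of the gene and comparison pairs; among those, signs turned for 2 values near zero. The CHIR99021 change of Smad7 with XAV939 was -0.0062 with quantile normalization, -0.00089 with cyclic loess, and -0.047 to 0.12 with single arrays left out. The average change of Bmp7 was 0.0031 with array weights, 0.023 with replicate 3 of untreated and replicate 2 of XAV939 both left out, and -0.059 to 0.014 with single arrays left out. The cause was not tested.

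The replicate numbers were not treated as pairs: same-numbered arrays of different groups correlated, in their deviations from group means, above 0.1 in 5 of 18 cases (-0.22 to 0.21), and 4 of 12 arrays correlated best with their own number. The replicate block gave 1, 0, 1, 0, 0, 0, 3 and 0 called genes of the 10 over the 8 contrasts. In the same order it called 0.391%, 0%, 0.843%, 0.216%, 0.00502%, 0%, 1.4% and 0.015% of all genes. Counts of calls over all genes moved more. They were 84 for CHIR99021 against untreated (2 to 119 over the alternatives), 225 for both compounds against untreated (0 to 550), 47 for both against XAV939 (2 to 70), 5 for both against CHIR99021 (0 to 10), 318 for the average CHIR99021 effect (2 to 429) and 66 for the average XAV939 effect (0 to 255). XAV939 against untreated gave 0 to 8 and the interaction 0 to 1.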

Other observations

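Genes of the E proteins and their partners, which Id proteins bind or oppose, were listed as well, and 7 were measured. Tcf3, Tcf4 and Tcf12, the 3 E protein genes, had average changes with CHIR99021 of -0.04, 0.0035 and 0.09, and none passed. Ascl2, a basic helix-loop-helix gene, fell by 0.26 on average (SE 0.05; limma adjusted p = 0.0153), from 5.55, 5.41 and 5.61 untreated and 5.56, 5.59 and 5.56 with XAV939 to 5.29, 5.32 and 5.35 with CHIR99021 and 5.17, 5.31 and 5.28 with both. All 6 arrays with CHIR99021 lay below all 6 without it, and 1.63% of all genes had such a gap in either direction. Called lower on average were 0.818% of all genes.

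Of 8 markers of naive pluripotency, Tbx3, which is also a BMP-responsive T-box gene, rose by 0.40 on average (SE 0.08; limma adjusted p = 0.013) and Klf2 by 0.21 (SE 0.05; limma adjusted p = 0.038). The other 6 did not pass: Klf4 had an average change of 0.20, Dppa3 0.17, Nr0b1 -0.17, Esrrb -0.15, Prdm14 -0.12 and Zfp42 -0.06. The median of the 8 was 0.05, and 5 of the 8 lay below the background measure. On average with CHIR99021, 0.777% of all genes were called higher. Among the 4 neural markers, Pax6 fell by 0.25 (SE 0.06; limma adjusted p = 0.0336), while Sox1 (0.16), Tubb3 (0.14) and Nes (-0.14) did not pass. The median of the 4 was 0.0015, and 0.818% of all genes were called lower. The BMP target Gata3 measured 5.76, 5.32 and 5.41 untreated, 5.21, 5.27 and 5.31 with CHIR99021, 5.72, 5.71 and 5.92 with XAV939, and 5.50, 5.49 and 5.27 with both, an average change with CHIR99021 of -0.30 that did not pass (SE 0.07; limma adjusted p = 0.0576); it was chosen after its values were seen.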
